A study of Homo sapiens with 6 samples.

Results

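The sensors that measure stress in the endoplasmic reticulum (ER), and the proteases that release some of them, were followed at the RNA level in myeloma cells given an inhibitor of the protease MALT1. They comprise 8 genes of the 62703 in the deposited tables, taken by symbol: ERN1 (IRE1), XBP1, EIF2AK3 (PERK), ATF6, ATF6B, CREB3L2, MBTPS1 (site-1 protease) and MBTPS2 (site-2 protease). The cells were H929 (NCI-H929), an established human multiple myeloma line, wild type by its label, so every result concerns 1 line. The 3 libraries of one group came from cells kept for 24 h in 1 µM Mi-2, a small-molecule MALT1 inhibitor, and the 3 of the other from cells kept for the same time in the solvent DMSO. Each title ends in the same biological replicate number, and nothing says that the libraries came from separate cultures. The p-values therefore reflect the scatter among these libraries alone, and that scatter may be technical.

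Plasma cells, and the myelomas that arise from them, fold and export very large amounts of antibody, and they depend on the unfolded protein response to keep the ER working. The response has separate arms, each started by a protein that spans the ER membrane. IRE1 is a kinase and RNase that removes a short intron from XBP1 mRNA in the cytoplasm, so that the active transcription factor can be made. PERK is a kinase that phosphorylates eIF2α, slows translation and lets ATF4 and CHOP be made. ATF6, its relative ATF6B and CREB3L2 are transcription factors tethered in the ER membrane. Under stress they travel to the Golgi, where site-1 protease and then site-2 protease cut them and free their DNA-binding part. All of these steps act on proteins or on splicing, so mRNA levels of the sensors do not report their activity.

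With Mi-2, 1 of the 8 genes changed. ATF6B rose 1.37-fold, from 95.3 ± 5.73 to 131 ± 6.69 CPM (counts scaled by TMM to a common library total, mean ± SD, n = 3), with an edgeR adjusted p of 0.0111. The other 7 did not pass an adjusted p of 0.05. All 8 were abundant enough to be tested, and the share called, 12.5%, was close to the 11.0% of all 16082 tested genes that were called (5.02% higher and 6.03% lower). In 7 of the 8 the fold change was positive, with a median log2 fold change of 0.16 against 0.00 over all tested genes. CPM ranges of the groups were separate for 2 of the 8, ATF6B and CREB3L2, and for 32.3% of all tested genes. The library counts behind these genes ran from 765 for MBTPS2 to 63247 for XBP1, so the spread between libraries, and not counting, set the errors. In bulk libraries like these, a different mix of cells and a different amount of RNA per cell cannot be told apart.

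**Figure D1:**
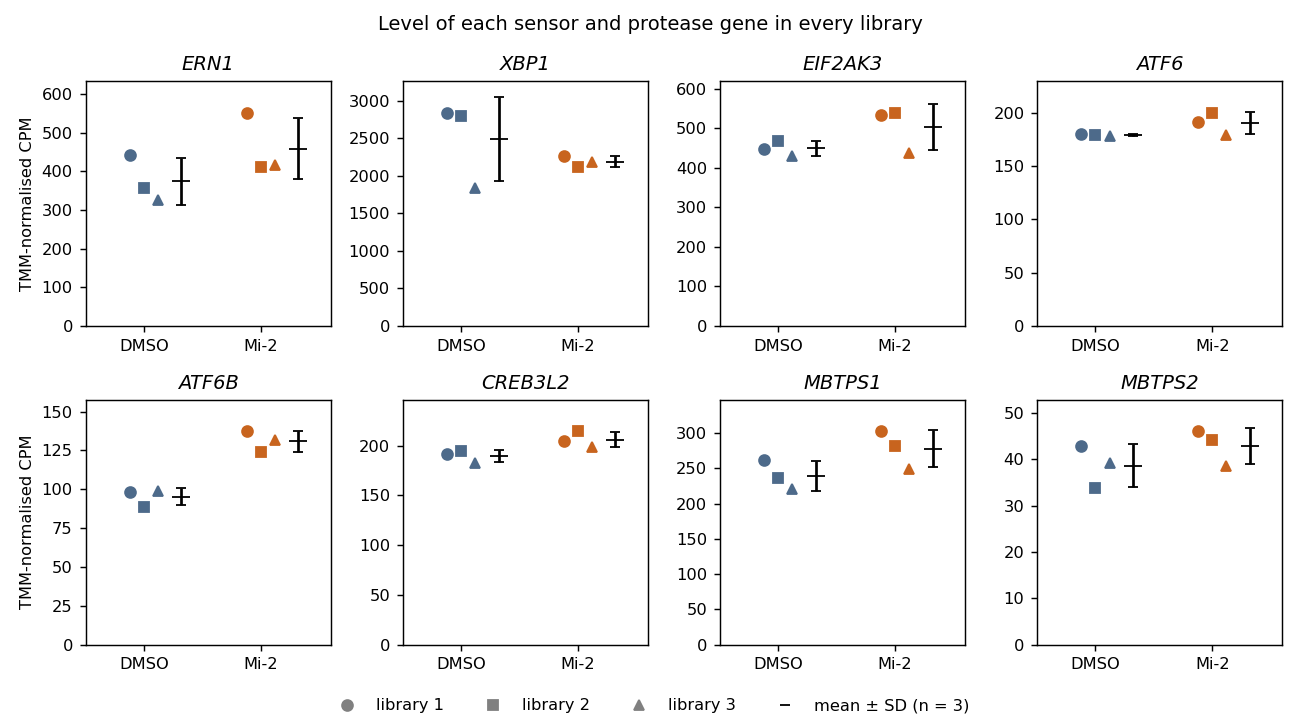
TMM-normalised CPM of the 8 genes (vertical axes, each starting at 0) in the 3 DMSO and 3 Mi-2 libraries, with the mean ± SD beside each group and a symbol for each library number. The groups stand apart for ATF6B (88.7 to 98.9 against 124 to 137 CPM) and, by a small margin, for CREB3L2 (183 to 194 against 199 to 214 CPM).

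The IRE1 arm starts with ERN1, at chromosome 17, 64039142 to 64130819, minus strand (GENCODE 29 annotation of GRCh38, as for all genes here). Under DMSO, libraries 1 to 3 read 442, 357 and 325 CPM for ERN1, against 551, 411 and 415 CPM under Mi-2 (values are given in the order of library number throughout). DMSO library 1 was higher than Mi-2 libraries 2 and 3, so the groups overlapped. The log2 fold change was 0.29 ± 0.15 (SE) and did not pass (edgeR adjusted p = 0.231). Its 95% interval runs from 0.978-fold to 1.54-fold. Without Mi-2 library 1 the log2 fold change was 0.14, and without DMSO library 1 it was 0.43. ERN2, the IRE1 form of mucus-secreting epithelia, was listed at 0 in all 6 libraries, which allows up to 0.150 CPM in the shallowest (3 counts, counting error only).

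XBP1, the substrate of IRE1 and a factor that plasma cells need for secretion, lies on chromosome 22 at 28794555 to 28800597, minus strand. Its level was 2838, 2796 and 1843 CPM under DMSO, against 2265, 2114 and 2185 CPM under Mi-2. The Mi-2 values lay close together, between DMSO library 3 below and the other DMSO libraries above. XBP1 was the only one of the 8 genes with a negative value (-0.19 ± 0.15, edgeR adjusted p = 0.479, 95% interval 0.691-fold to 1.11-fold). Leaving out DMSO library 3 gave -0.37 (edgeR adjusted p = 0.0688), and leaving out DMSO library 1 gave -0.08.

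The intron that IRE1 removes is shown here because the gene tables add its spliced and unspliced forms together. It was found in transcript XBP1-201 of GENCODE 29 as the sole pair of CNG/CAG loop motifs whose cut points lie 26 bases apart. It covers chr22:28796127-28796152 of GRCh38, on the minus strand, within the coding part of exon 4. The intron stands in capitals between 20 flanking bases on each side.
XBP1 with intron: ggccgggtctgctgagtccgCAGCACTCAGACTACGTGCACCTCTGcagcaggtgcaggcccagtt
XBP1 joined: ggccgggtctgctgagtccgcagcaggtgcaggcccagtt
Its length leaves a remainder of 2 when divided by 3, so its removal shifts the reading frame. Of the 7 annotated XBP1 transcripts, 4 hold the intact site and 2 (XBP1-202 and XBP1-207) the joined one. The values above sum over all of them, and the spliced share of XBP1 was not analysed here.

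The other parts of the IRE1 arm were read from the same fit. Of 18 genes in a list of IRE1 regulators, the tRNA ligase that rejoins XBP1 and related genes, ERN1 and XBP1 among them, 17 were tested, and 1 rose and 1 fell, a share of 11.8% against 11.0% of all tested genes. PDIA6, a disulfide isomerase that limits IRE1 activity, rose (0.45 ± 0.10, edgeR adjusted p = 0.0233), and TRAF2, an adaptor that binds IRE1, fell (-0.43 ± 0.12, edgeR adjusted p = 0.0488). PDIA6 lost its call when DMSO library 2 or 3, or Mi-2 library 1 or 2, was left out (highest adjusted p 0.0929). TRAF2 lost its call in every such fit except the one without Mi-2 library 2 (highest adjusted p 0.160). RTCB, the ligase itself, had -0.22 ± 0.10 (edgeR adjusted p = 0.183). Of 8 known substrates of direct RNA decay by IRE1, 5 were tested and none was called by edgeR (median -0.13). At an unadjusted edgeR p under 0.05 there were 2 higher and 1 lower, against 2081 and 2266 of all 16082 tested genes. BLOC1S1, the best described of them, had 15.8, 14.9 and 16.3 CPM under DMSO, against 21.1, 19.3 and 20.3 CPM under Mi-2. Its groups were separate, but it did not pass with edgeR (0.37 ± 0.11, adjusted p = 0.0526). DESeq2 called BLOC1S1 higher (adjusted p = 0.0454). When edgeR was run on unfiltered counts BLOC1S1 was not called (adjusted p = 0.106). HGSNAT, a lysosomal acetyltransferase named here after its values were seen, was the 1 substrate of 8 called higher there (0.44, adjusted p = 0.0163). That fit called 1221 of 31459 genes higher and 1541 lower. The largest change of the 5 substrates tested in the main fit was downward. PMP22, also named after its values were seen, had -0.97 ± 0.42 with separate groups and did not pass (edgeR adjusted p = 0.167). With the library number as a replicate block, 2 substrates were called higher and 1, PMP22, lower (edgeR adjusted p = 0.0486). Over all 16082 genes that fit called 1791 higher and 2035 lower.

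EIF2AK3, which encodes PERK, lies on chromosome 2 at 88556741 to 88627576, minus strand. It had 448, 468 and 430.0 CPM under DMSO, against 533, 538 and 436 CPM under Mi-2. Mi-2 libraries 1 and 2 were above every DMSO library, whereas Mi-2 library 3 lay within the DMSO range. The log2 fold change of 0.16 ± 0.10 did not pass (edgeR adjusted p = 0.341, 95% interval 0.956-fold to 1.31-fold). Without Mi-2 library 3 it was 0.26 and still did not pass (adjusted p = 0.119). Reads of EIF2AK3-DT, an antisense neighbour that overlaps it, amounted to 0.529% of its own.

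The other kinases of eIF2α, which answer to heme lack, double-stranded RNA and amino acid shortage, were not called either. EIF2AK1 had a log2 fold change of -0.09 ± 0.08, EIF2AK2 one of -0.09 ± 0.23 and EIF2AK4 one of 0.27 ± 0.08, just above the threshold (edgeR adjusted p = 0.0519). Of 16 genes of the PERK branch and of eIF2 regulation, EIF2AK3 among them, 1 rose and none fell (median -0.06). That is 6.25% higher, close to the 5.02% of all tested genes. The rise was in DNAJC3 (0.71 ± 0.13, edgeR adjusted p = 0.0117), a co-chaperone also listed among XBP1 and ATF6 targets, whose call was lost when DMSO library 2 or 3, or Mi-2 library 1, was left out (highest adjusted p 0.0551). ATF4 had 385, 373 and 468 CPM under DMSO, against 493, 439.8 and 480.3 CPM under Mi-2 (0.21 ± 0.11, edgeR adjusted p = 0.250). The phosphatase subunit gene PPP1R15A, which ends the response, read 77.9 ± 12.4 CPM under DMSO, against 78.0 ± 7.19 CPM under Mi-2.

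Further down this arm, 1 of 19 tested targets of ATF4 and CHOP rose and none fell (median -0.04). That is 5.26% higher, close to the 5.02% of all tested genes. The single rise was DDIT3, the gene for CHOP, with 4.97, 4.42 and 5.26 CPM in the DMSO libraries and 16.7, 8.75 and 10.5 CPM in the Mi-2 libraries. Every Mi-2 library was above every DMSO library, and the call held with any library left out (1.29 ± 0.24, edgeR adjusted p = 0.0106, at most 0.0484). When edgeR was run on unfiltered counts, 3 of 20 tested genes of the list were higher and 1 lower, against 1221 and 1541 of all 31459.

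ATF6 (chromosome 1, 161766294 to 161964070, plus strand) was the steadiest of the 8 genes. It had 180.3, 178.8 and 177.7 CPM under DMSO, against 191.4, 199.6 and 179.3 CPM under Mi-2. Mi-2 library 3 lay between DMSO libraries, so the groups overlapped. Its log2 fold change of 0.09 ± 0.08 had a 95% interval from 0.939-fold to 1.20-fold (edgeR adjusted p = 0.528), which ends just below the lower end of the interval of ATF6B.

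ATF6B, which encodes the relative of ATF6, lies in the class III region of the major histocompatibility complex (chromosome 6, 32115264 to 32128253, minus strand). The DMSO libraries had 98.2, 88.7 and 98.9 CPM and the Mi-2 libraries 137, 124 and 132 CPM. The lowest Mi-2 library was above the highest DMSO library. The log2 fold change was 0.46 ± 0.08, with a 95% interval from 1.21-fold to 1.57-fold (edgeR adjusted p = 0.0111). The call was lost by a narrow margin without DMSO library 2 (0.41, adjusted p = 0.0529) or Mi-2 library 1 (0.42, adjusted p = 0.0519).

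On the deposited TPM values, which are scaled to a common total and corrected for transcript length, ATF6B read 81.3, 66.7 and 70.6 under DMSO, against 90.3, 94.3 and 92.0 under Mi-2. The groups were separate here too, but the change was smaller and did not pass (0.34 on the log2(TPM + 1) scale, limma adjusted p = 0.0896). The scales differ through the mean transcript length that the TPM assumed. Set against the library median over 12807 protein-coding genes, counts per TPM of ATF6B were 0.615, 0.696 and 0.665 with DMSO and 0.780, 0.656 and 0.709 with Mi-2. These lengths varied more between libraries than those of XBP1 (0.652 to 0.675) and were highest in Mi-2 library 1. Whether the isoforms of ATF6B shifted was not tested. The neighbouring gene TNXB overlaps ATF6B on the same strand, and its reads amounted to 3.42% of those of ATF6B (TNXB itself -0.08, edgeR adjusted p = 0.840).

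CREB3L2 (chromosome 7, 137874979 to 138002067, minus strand) encodes a membrane-tethered factor of the CREB3 family that serves secretory cells. It had 191, 194 and 183 CPM under DMSO, against 205, 214 and 199 CPM under Mi-2. Every Mi-2 library was higher than every DMSO library, but the margin was small and the change did not pass (0.12 ± 0.08, edgeR adjusted p = 0.356, 95% interval 0.963-fold to 1.23-fold).

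Its relatives CREB3 and CREB3L4 rose. CREB3, a factor of Golgi stress and secretion, went from 29.7, 26.9 and 33.4 CPM under DMSO to 49.3, 47.3 and 49.2 CPM under Mi-2 (0.70 ± 0.10, edgeR adjusted p = 0.00468), and stayed called whichever library was left out. CREB3L4 had 27.6, 21.9 and 28.3 CPM under DMSO, against 37.4, 31.3 and 38.9 CPM under Mi-2 (0.47 ± 0.13, edgeR adjusted p = 0.0454). Its call rested on the full set of libraries, being lost in every fit with a library left out except the one without Mi-2 library 2 (highest adjusted p 0.152). CREB3L1 and CREB3L3 were at the limit of detection, with 0 to 3 and 0 to 2 counts per library. Of the 3 tested members of the family 2 rose (66.7%, against 5.02% of all tested genes), and CREB3L2 did not pass.

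MBTPS1 (chromosome 16, 84053761 to 84116906, minus strand) encodes site-1 protease, a serine protease of the Golgi that makes the first cut. It had 262, 236 and 220.4 CPM under DMSO, against 302, 282 and 249.8 CPM under Mi-2. Mi-2 library 3 was below DMSO library 1, so the ranges overlapped. The log2 fold change was 0.22 ± 0.10 (edgeR adjusted p = 0.211), with a 95% interval from 0.990-fold to 1.36-fold.

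MBTPS2 (chromosome X, 21839636 to 21885424, plus strand) encodes site-2 protease, a metalloprotease that makes the second cut inside the membrane. It was the least abundant of the 8 genes, at 43.0, 33.8 and 39.2 CPM under DMSO, against 46.1, 44.2 and 38.6 CPM under Mi-2. The groups overlapped and the change did not pass (0.15 ± 0.11, edgeR adjusted p = 0.433, 95% interval 0.933-fold to 1.32-fold). The small gene YY2 lies within MBTPS2 on the same strand, with reads equal to 6.38% of those of MBTPS2.

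Both proteases also release the SREBP factors of sterol synthesis and other membrane proteins. In a list of 16 such substrates and partners, which holds 5 of the 8 genes, 14 were tested, 3 rose and none fell (median 0.17). The rises were 21.4% of the tested genes of the list, against 5.02% of all tested genes. The rises were those of ATF6B, CREB3 and CREB3L4, all membrane-bound transcription factors. SPRING1, which helps site-1 protease mature, had 0.20 ± 0.09, and SCAP, the sterol-sensing escort of SREBP, 0.19 ± 0.09 (edgeR adjusted p = 0.182 and 0.203). INSIG1, which holds SCAP in the ER, had -0.23 ± 0.11, SREBF1 -0.18 ± 0.12 and SREBF2 a value near 0 (0.00 ± 0.12). None of these passed.

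Among 19 tested SREBP targets, 1 rose and 3 fell (median -0.20), so that 21.1% were called, against 11.0% of all tested genes. Falls were seen in DHCR7, which acts late in cholesterol synthesis (-0.60 ± 0.12), and in FASN, the fatty acid synthase gene (-0.57 ± 0.15). HMGCS1, an early enzyme of the same pathway, rose (0.40 ± 0.11). With the libraries left out in turn DHCR7, FASN and HMGCS1 each lost their call at least 3 times (adjusted p up to 0.159). All of them lost it without DMSO library 2 and without DMSO library 3. With either of these libraries left out edgeR called 0 falls among the 19 targets, with 4 at an unadjusted p under 0.05. Over all genes, 1772 of 16463 were lower at that unadjusted p without DMSO library 2, and 1947 of 16535 without DMSO library 3.

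**Figure D2:**
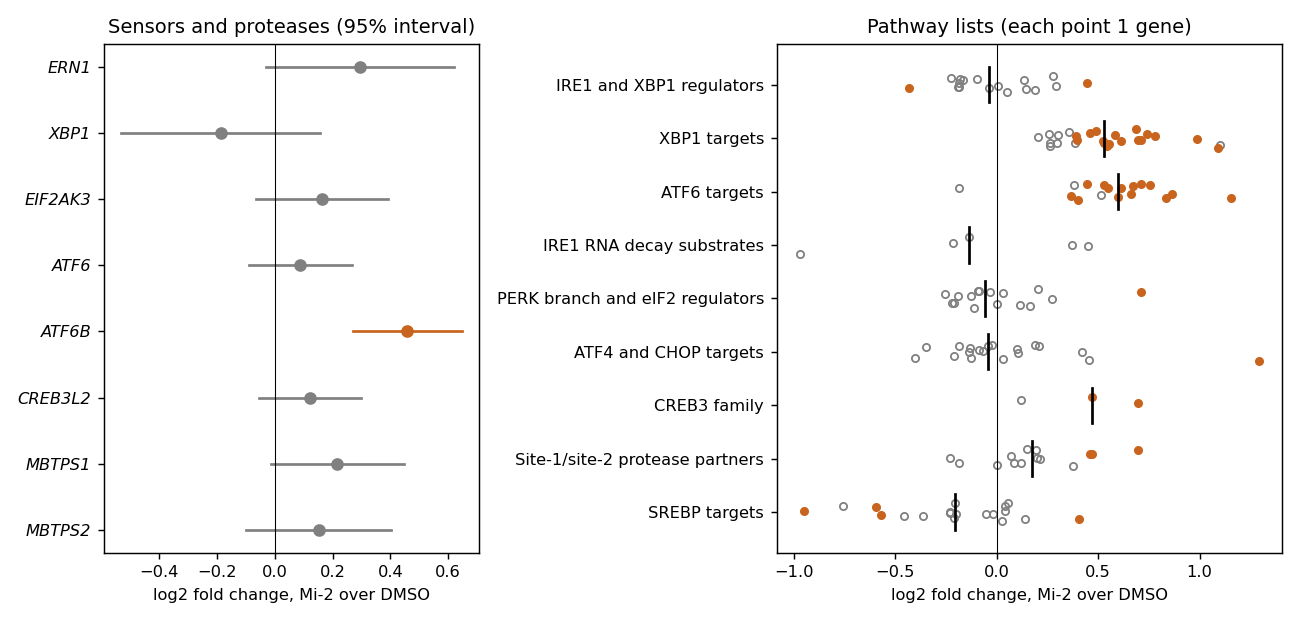
Log2 fold change of Mi-2 over DMSO (horizontal axes) with its 95% interval for the 8 genes on the left, and for each tested gene of the pathway lists on the right, where the bar is the list median. Filled orange marks an edgeR adjusted p under 0.05. On the left only ATF6B is filled, and on the right the XBP1 and ATF6 target lists have medians of 0.53 and 0.60.

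Known targets of the factors stood higher than the sensor genes did. Of 26 XBP1 targets, all tested, 17 rose and none fell, a share of 65.4% against 5.02% of all tested genes, with a median log2 fold change of 0.53. Of 17 ATF6 targets, 14 rose and none fell (82.4%, median 0.60), and XBP1 was the sole member with a negative value. The lists share DNAJB11 and DNAJC3, which are 7.69% of the first and 11.8% of the second. Both lists were drawn up with earlier results of these libraries known, so their direction is not independent evidence.

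Examples among the XBP1 targets were DNAJB9, a co-chaperone that holds IRE1 inactive (78.0, 65.9 and 56.2 CPM under DMSO, against 174, 143 and 109 CPM under Mi-2), and SEC24D, a coat protein of ER export (0.99 ± 0.11). EDEM2 (0.78 ± 0.10) and EDEM1 (0.54 ± 0.14), which act in ER-associated degradation, rose, as did SEC61A1, the channel of the translocon (0.40 ± 0.10). Calls of DNAJB9, SEC24D and EDEM2 held with any library left out. EDEM1 and SEC61A1 lost theirs when DMSO library 2 or 3, or Mi-2 library 1 or 2, was left out (highest adjusted p 0.149). Limma on log2(TPM + 1) called SEC24D and EDEM2 (adjusted p = 0.0184 and 0.0230) but not DNAJB9 (adjusted p = 0.0538).

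Among the ATF6 targets, CRELD2 (1.16 ± 0.16), MANF (0.86 ± 0.11) and HYOU1 (0.76 ± 0.12) stayed called whichever library was left out. HSPA5, the main ER chaperone BiP, which binds all of the sensors in unstressed cells, had 1451, 1250.5 and 1209 CPM under DMSO, against 2041, 1932 and 1753 CPM under Mi-2. Its groups were well apart (0.55 ± 0.11, edgeR adjusted p = 0.0130), although the call was lost when DMSO library 2 or 3, or Mi-2 library 1, was left out (highest adjusted p 0.0639). HERPUD1, a gene of ER-associated degradation, rose (0.40 ± 0.11, edgeR adjusted p = 0.0476), but lost its call with any library left out except Mi-2 library 3 (up to 0.159). SDF2L1 did not pass (0.51 ± 0.25, edgeR adjusted p = 0.222). Leaving out DMSO library 2 or 3 or Mi-2 library 1 lowered the counts of rises to 6 or 7 XBP1 targets and to 6 ATF6 targets, and leaving out Mi-2 library 2 gave 10 XBP1 targets. Limma on log2(TPM + 1) called 5 and 7.

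Promoters were searched for the elements that this response is known to act through. The 250 bases before each RefSeq gene start (GRCh38.p14) were searched on both strands for the ER stress element (ERSE), the site of ATF6 with NF-Y, written as CCAAT, any 9 bases and CCACG. All 8 genes were in that table. An ERSE stood in 26 of 35116 promoters (0.0740%), and among the 8 genes in that of XBP1 alone. Of the 16 ATF6 targets in the table, 7 had one: XBP1, HSPA5, CRELD2, CALR, ERO1B, HSP90B1 and PDIA6, named here by the search and after their values were known. The last 6 rose and XBP1 did not. In the whole list 14 of 17 targets rose (82.4%, against 5.02% of all tested genes). Of targets without an ERSE, HYOU1 and HERPUD1 rose and SDF2L1 did not pass. Whether the element goes with a rise was not tested. The list holds known targets of the factor that binds this element, so its share of promoters with an ERSE is not independent of the search. Sequences of XBP1 and of the targets with the main chaperone and the largest rise are given for comparison, 5′ to 3′ in the direction of the gene, with the ERSE in capitals.
XBP1: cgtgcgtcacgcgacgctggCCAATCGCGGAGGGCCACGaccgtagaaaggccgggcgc
HSPA5: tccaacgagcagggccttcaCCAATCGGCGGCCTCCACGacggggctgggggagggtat
CRELD2: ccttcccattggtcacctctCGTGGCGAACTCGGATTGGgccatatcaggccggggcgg
They cover chr22:28800583-28800641 (minus strand), chr9:125241371-125241429 (minus strand) and chr22:49918534-49918592 (plus strand). The element begins 52 bases before the start of XBP1, 66 before that of HSPA5 and 80 before that of CRELD2, where it lies in reverse complement.

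ATF6B, the member that rose, had none of the elements searched. Those were the ERSE, the ERSE-II (ATTGG, any 1 base and CCACG, in 0.0513% of promoters), the UPRE (TGACGTGG, in 0.612%) and the CRE (TGACGTCA, in 1.65%). Among the 8 genes the CRE occurred in the promoter of CREB3L2, and the ERSE-II and UPRE in none. Among the 16 ATF6 targets searched, the ERSE-II occurred in HERPUD1, HYOU1 and SDF2L1, and the UPRE in HYOU1. Of the 23 XBP1 targets searched, none had an ERSE or ERSE-II, and the UPRE occurred in KDELR3, SEC62 and SSR3. The 150 bases before the start of ATF6B, chr6:32128247-32128396 on the minus strand, are shown because it is the gene that moved.
ATF6B: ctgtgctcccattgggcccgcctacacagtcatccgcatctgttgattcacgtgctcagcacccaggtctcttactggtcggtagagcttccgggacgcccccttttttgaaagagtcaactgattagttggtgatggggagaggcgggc
A match is a description of these letters, not of binding, and a missing match says nothing about a factor.

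Compared per transcript length, the 8 genes spanned a wide range of levels. In the DMSO libraries the mean TPM was 1883 ± 481 for XBP1, 159 ± 11.9 for EIF2AK3, 80.4 ± 13.8 for MBTPS1 and 72.9 ± 7.56 for ATF6B. Below them stood ATF6 at 67.1 ± 2.95, ERN1 at 61.3 ± 12.5, CREB3L2 at 30.7 ± 2.48 and MBTPS2 at 10.7 ± 1.27 (mean ± SD, n = 3). XBP1 ranked 84 of the 16082 tested genes by TPM and was 11.9 times as high as EIF2AK3, the next of the 8. MBTPS1, ATF6B, ATF6 and ERN1 formed a group of like levels, in which neighbours had overlapping ranges. XBP1, EIF2AK3, CREB3L2 and MBTPS2 kept ranges apart from their neighbours, and these 4 held the same place in each of the 6 libraries.

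In the Mi-2 libraries the order was XBP1 (1679 ± 90.9 TPM), EIF2AK3 (177 ± 22.8), MBTPS1 (92.4 ± 8.80), ATF6B (92.2 ± 2.01), ERN1 (77.2 ± 15.3), ATF6 (69.3 ± 3.52), CREB3L2 (34.0 ± 2.40) and MBTPS2 (12.1 ± 1.05). ERN1 and ATF6 exchanged places, with overlapping ranges in both groups.

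**Figure D3:**
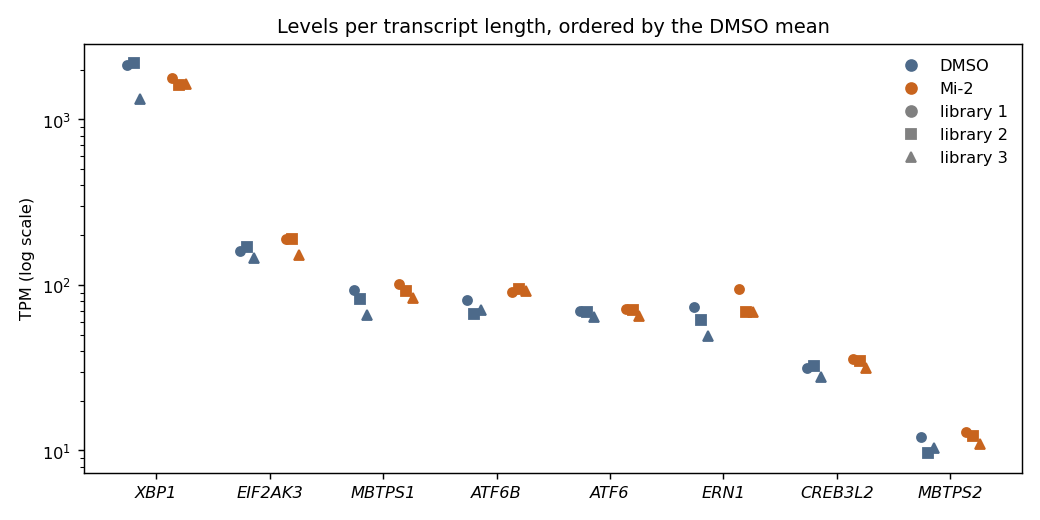
TPM of the 8 genes in every library on a log axis, ordered by the DMSO mean, with DMSO in blue, Mi-2 in orange and a symbol for each library number. XBP1 (1883 TPM on average with DMSO) lies far above the rest, MBTPS1, ATF6B, ATF6 and ERN1 overlap, and MBTPS2 (10.7 TPM) is lowest.

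Ratios between related genes within a library do not depend on how libraries were scaled. XBP1 was 29.02, 35.6 and 27.2 times ERN1 in the DMSO libraries and 18.8, 23.7 and 23.9 times ERN1 in the Mi-2 libraries, by TPM. The groups did not overlap, and the log2 ratio differed by -0.47 ± 0.16 (SE). ATF6 was 0.853, 1.02 and 0.903 times ATF6B with DMSO and 0.796, 0.750 and 0.710 times ATF6B with Mi-2, a difference of -0.30 ± 0.09. For CREB3L2 over ATF6 the ratios were 0.456, 0.477 and 0.437 with DMSO and 0.50, 0.490 and 0.479 with Mi-2 (0.10 ± 0.04, and 0.04 with CPM in place of TPM). Each of these 3 gave an exact two-sided permutation p of 0.1, the smallest that 3 against 3 libraries allow, or 0.167 when adjusted over the 5 ratios computed.

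MBTPS1 over MBTPS2 and ERN1 over EIF2AK3 had overlapping groups. The proteases stood at 7.73, 8.53 and 6.39 with DMSO and at 7.79, 7.52 and 7.66 with Mi-2 (difference 0.03 ± 0.12, exact permutation p = 0.9). ERN1 was 0.461, 0.361 and 0.335 times EIF2AK3 with DMSO and 0.498, 0.359 and 0.455 times with Mi-2 (0.18 ± 0.20, exact permutation p = 0.5).

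**Figure D4:**
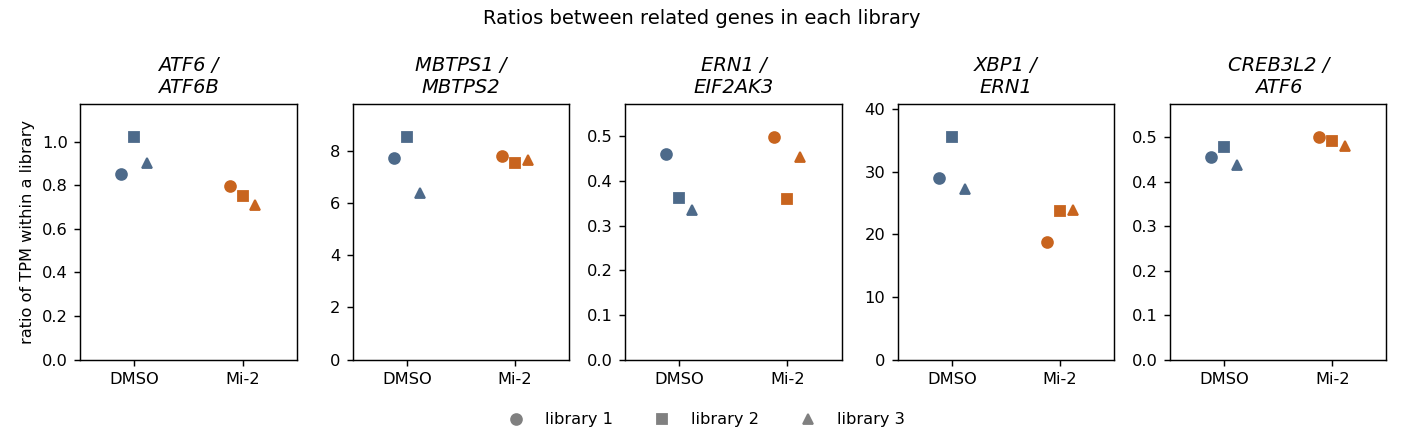
Ratio of TPM values between 2 related genes within each library (vertical axes from 0), DMSO in blue and Mi-2 in orange, with a symbol for each library number. The groups do not overlap for ATF6 over ATF6B, XBP1 over ERN1 and CREB3L2 over ATF6, and overlap for the others.

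The libraries of a group differed in the same direction for many of these genes. DMSO library 3 had the lowest CPM of its group in 6 of the 8 genes and Mi-2 library 3 in 5 of them. DMSO library 1 and Mi-2 library 1 each had the highest CPM of their groups in 5. The genes whose log2 CPM most resembled that of ERN1 over the 6 libraries, among 9852 others whose average log2 CPM reached 3, were GASK1A (Pearson r = 0.996) and TMEM62 (0.994). For XBP1 they were ENSG00000291272, which has no symbol, and RIC3 (0.993 and 0.984), and for EIF2AK3 they were SUPT20H and NADK2 (0.995 and 0.994). With 6 points that share treatment and library, such values arise easily among so many genes and are given as a description.

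**Figure D5:**
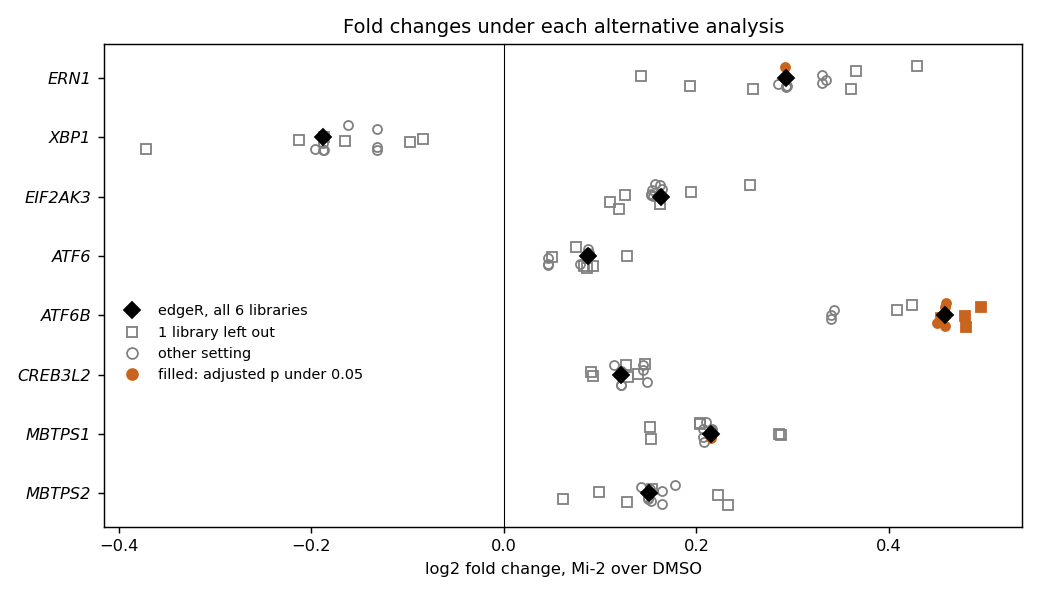
Log2 fold change of the 8 genes (horizontal axis) with all 6 libraries in edgeR (black diamonds), with 1 library left out (squares) and in the other settings (circles), filled orange where the adjusted p was under 0.05. All values of XBP1 lie below 0 (-0.37 to -0.08) and all values of the other 7 genes above it, with those of ATF6B from 0.34 to 0.50.

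Total estimated counts ran from 19980700 to 23756700 per library. Of 10 plasma cell and myeloma markers, 9 had a mean TPM of at least 1, TNFRSF13B being the exception, with a summed level of 8498 to 11524 TPM in the DMSO and 9158 to 12197 TPM in the Mi-2 libraries, most of it from JCHAIN (mean 6248 and 6531 TPM). Of the 9 tested markers of this list 4 were called (44.4%, against 11.0% of all tested genes) and 5 were not. Those called moved both ways (named here, like those of the other lists, after their values were seen). SDC1 (-0.69 ± 0.15, edgeR adjusted p = 0.0180) and CD38 (-0.86 ± 0.21, 0.0296), plasma cell surface proteins, fell, and MZB1, an ER protein of antibody assembly (0.70 ± 0.11, 0.00576), and IRF4, a plasma cell transcription factor (0.35 ± 0.09, 0.0441), rose. Of these 4, MZB1 alone stayed called whichever library was left out. SDC1 lost its call without DMSO library 2 or Mi-2 library 2, CD38 without DMSO library 2 or Mi-2 library 1 or 3, and IRF4 in every such fit except the one without DMSO library 1 (highest adjusted p 0.165).

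Among other cell types, 8 myeloid markers summed to 0.83 to 1.17 TPM with DMSO and 1.04 to 2.86 TPM with Mi-2. The 8 T and NK cell markers summed to 87.6 to 93.6 and 96.8 to 118 TPM, nearly all from CD3E and NCAM1, with CD3D at 0. CD3E rose (0.50 ± 0.11, edgeR adjusted p = 0.0180, and 0.0783 without DMSO library 2). The 8 markers of fibroblasts, endothelium and epithelium summed to 61.9 to 79.7 and 75.0 to 107 TPM, mostly from PECAM1 and KRT8, with COL1A2 and COL3A1 at 0, and PECAM1 rose (0.35 ± 0.10, edgeR adjusted p = 0.0488), losing its call whichever library was left out (highest adjusted p 0.177). The 6 markers of erythroid cells and platelets summed to 0.55 to 16.3 and 2.28 to 19.96 TPM, with PPBP and PF4 at 0. The part of these markers in the results was not tested.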

How the data were processed

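Total RNA of H929 cells was sequenced as paired ends on a NovaSeq instrument, per the labels' protocols. RSEM 1.3.3, StringTie 2.1.0, HISAT2 2.1.0, fastp 0.19.5 and build GRCh38.p13 are named in the submitters' processing notes, with no role or order. The authors deposited a table of estimated counts per gene, not scaled between libraries, and a table of TPM values per gene, corrected for length. How RNA was selected, strandedness and the annotation release: not given in the sources used here.

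Estimated counts were rounded, filtered with filterByExpr (minimum count 10, total 15), scaled by TMM and tested with edgeR 4.0.16 in R 4.3.3 (quasi-likelihood F test) over 16082 genes, with Benjamini-Hochberg adjustment and a threshold of 0.05. SE values follow from each fold change and F statistic, and 95% intervals are not adjusted for the number of genes. The biological coefficient of variation was 14.2%. DESeq2 1.42.0 and limma 3.58.1 served in alternatives. The main edgeR fit alone was also run on simulated counts with the same dispersion for every gene. That run cannot speak for spread that differs between genes, for effects shared by libraries or for the alternatives. Within each group the chi-square between libraries was 15.0 to 21.1 per degree of freedom, where counting alone gives about 1, so none was a copy.

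Symbols came from a name table that covers 62625 of the IDs, and coordinates from GENCODE 29. Named genes were the 8 members, 24 further genes fixed by name, up to 4 called genes per pathway list and direction, and the closest patterns. The members, lists and this rule were chosen with earlier results of these data known. A result for 1 gene that this rule names is not reported here.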

Additional observations from a re-analysis of the deposited data

How the results depend on the processing

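All 14 alternatives kept the direction of each of the 8 genes, and CREB3L2, ATF6, XBP1, EIF2AK3 and MBTPS2 were not called in any. ATF6B was not called by limma on log2(TPM + 1) or log2(TPM + 0.1) (0.34 in each) or on log2(TPM + 1) with no TPM filter (0.34), and ran from 0.41 to 0.50 with a library left out. With the library number as a replicate block, ERN1 (0.29, edgeR adjusted p = 0.00561) and MBTPS1 (0.21, edgeR adjusted p = 0.0206) were called higher. The labels name no pairs. Deviations of same-numbered libraries correlated by 0.48, 0.08 and 0.30, and every library correlated best with its own number, a hint from the data and not the design. For number 2 the margin was slight, at 0.075 for its own pair. DMSO library 2 had 0.060 with Mi-2 library 3, and Mi-2 library 2 had 0.067 with DMSO library 3. The block gave 1791 genes higher and 2035 lower, against 808 and 969. On unfiltered counts edgeR gave 1221 and 1541, limma on log2(TPM + 1) 229 and 381, and on log2(TPM + 0.1) 249 and 398. Limma with no TPM filter called 0 and 0 of 31463 genes, with 1836 and 1972 at an unadjusted p under 0.05. Leaving out a library gave 216 to 715 higher and 302 to 866 lower. XBP1 targets called higher were 5, 6 and 0 in those limma fits and 6 to 19 with a library left out, and ATF6 targets 7, 7 and 0 and 6 to 14. With CPM, CREB3L2 over ATF6 differed by 0.036. Values near 0 changed sign without being called. PPP1R15A was at -0.0067 on unfiltered counts and -0.12 to 0.099 with a library left out. SREBF2 was at 0.0072 on log2(TPM + 1) with or without the filter, 0.0074 on log2(TPM + 0.1), 0.00034 with the block and -0.11 to 0.098. EIF2AK2 was at 0.014, 0.014 and 0.015 in the limma fits and -0.29 to 0.13, and RIC3 at 0.062, 0.062 and 0.067 and -0.19 to 0.0080. The cause of these differences was not tested. For the 7 genes of the 8 that were not called, changes as large as the bounds of their intervals could not be told from none with 3 libraries per group.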
